A study of Homo sapiens with 4 samples.

Results

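hsa-miR-17, hsa-miR-20a, hsa-miR-106a, hsa-miR-20b, hsa-miR-106b and hsa-miR-93 are mature miRNAs that share 1 seed, and they are described here across the 4 miRNA arrays of the study. They were taken as the capture probes whose name on the arrays equals 1 of these 6 names, a rule on names alone, which gave 6 of the 1422 named miRNA probes. The arrays were Exiqon arrays with 1 dye (Hy3), with 1 array for HT-29 and 1 for LS174T cells that carried shRNA-Ascl2, and 1 for each line with shRNA-Ctr. HT-29 and LS174T are long-established human cell lines grown out of adenocarcinomas of the colon. All 4 cell populations carried a stably integrated plasmid with EGFP and were grown in McCoy's 5A medium with 10% fetal bovine serum and G418, at 0.4 mg/ml for HT-29 and 0.2 mg/ml for LS174T. The shRNA-Ascl2 plasmid encoded a short hairpin RNA against Ascl2, a basic helix-loop-helix transcription factor of intestinal stem cells, whereas the shRNA-Ctr plasmid held no insert. Each ratio therefore also sets cells that make a hairpin RNA against cells that make none. Several stable clones were raised per construct, and which of them was hybridised was not stated. Ascl2 mRNA has no probe on a miRNA array, so the knock-down could not be checked in these files.

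A mature miRNA of this family is cut from 1 arm of a hairpin precursor and loaded into an Argonaute protein, where its seed, bases 2 to 8 from the 5′ end, pairs with complementary sites in target mRNAs and lowers their output. The family is encoded by 3 clusters that arose by duplication. In colon and other epithelial tumours these clusters are known for driving proliferation, are induced by MYC and E2F factors, and repress cell cycle brakes such as the kinase inhibitor CDKN1A. The mature sequences are shown because the near identity of the members bears on how far their probes can be told apart. Capitals mark the seed, the sequences are from RefSeq on GRCh38.p14, all 6 members were matched, and each is the 5p arm of its precursor.
hsa-miR-17: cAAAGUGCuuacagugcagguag
hsa-miR-20a: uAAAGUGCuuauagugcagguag
hsa-miR-106a: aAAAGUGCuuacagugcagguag
hsa-miR-20b: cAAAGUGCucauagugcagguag
hsa-miR-106b: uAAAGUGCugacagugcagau
hsa-miR-93: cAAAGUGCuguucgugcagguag

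The 6 seeds were the same and the members differed only outside them. Counting positions from 1 at the 5′ end and writing the base of hsa-miR-17 first, hsa-miR-106a differed from hsa-miR-17 at 1 position (C1A). hsa-miR-20a differed from hsa-miR-17 at 2 positions (C1U and C12U), as did hsa-miR-20b (U10C and C12U). hsa-miR-106b, which is 21 bases long where the other members have 23, differed at 3 of the 21 shared positions (U10G and G20A beside C1U), and hsa-miR-93 at 4 (U10G, A11U, C12U and A13C). The array probes are complementary to these sequences, so the signals of the closest members can include each other's RNA, and the size of this cross-hybridisation was not tested.

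The members lie in pairs. hsa-miR-17 (chr13:91350618-91350640, plus strand) and hsa-miR-20a (chr13:91351072-91351094, plus strand) belong to the miR-17-92 cluster, whose 6 hairpins span 787 bases within the noncoding host gene MIR17HG. hsa-miR-106a (chrX:134170244-134170266, minus strand) and hsa-miR-20b (chrX:134169850-134169872, minus strand) belong to the miR-106a-363 cluster, whose 6 hairpins span 901 bases within MIR106AHG. hsa-miR-106b (chr7:100094043-100094063, minus strand) and hsa-miR-93 (chr7:100093815-100093837, minus strand) belong to the miR-106b-25 cluster, whose 3 hairpins span 515 bases within MCM7, a gene for a subunit of the replicative helicase.

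Intensities are foreground minus background, averaged over the 4 spots of a probe, and divided by the median of the array over the 471 named miRNA probes above 50 on all 4 arrays, then multiplied by 1 common factor (360.5). Each SD is over the 4 spots and covers technical spread on 1 array only. Since each condition was measured once, no replicate of the cells exists and no p-value can be given for a difference within a line, and a miRNA was called higher or lower only by its ratio, at 2-fold or more (a ratio of 2 or above, or of 0.5 or below) with the brighter array above 50. The 6 members passed this limit on all 4 arrays. Their brightest spot read 20655, below the range in which the scanner saturates. Since total RNA of many cells was used, a lower level in each cell and fewer cells with the miRNA cannot be told apart.

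Several facts of the arrays bear on the members. The blocks of the array fall into blocks 1 to 18 and blocks 19 to 36, and each probe has a pair of spots in either range. The landmark controls are 4 of the 62 spike-in probes and have spots in every block. They gave a median of 0.553 in blocks 19 to 36 relative to blocks 1 to 18 with shRNA-Ascl2 and of 1.37 with shRNA-Ctr in HT-29, against 0.924 and 0.733 in LS174T. After scaling on the miRNA probes, the spike-in controls had a median ratio of shRNA-Ascl2 to shRNA-Ctr of 1.01 for HT-29 (46 spike-ins) and of 9.22 for LS174T (42 spike-ins, 39 of them at least 2-fold higher). Spike-in scaling, an alternative used below, instead divided each array by its median level over the 40 spike-ins above 50 on all 4 arrays. With shRNA-Ascl2 and shRNA-Ctr these medians were 1213.6 and 1546.5 in HT-29, and 1304.6 and 150.5 in LS174T. It can therefore move the HT-29 ratios although the median ratio was 1.01. Of 8 miRNAs known from colon epithelium, 7 were above 50 on all 4 arrays and hsa-miR-215 was above 50 on 1. Their summed level was 169490 and 185350 with shRNA-Ascl2 and shRNA-Ctr in HT-29, and 177340 and 23355 in LS174T, where the members' signals moved the same way, and the part of this in the members' ratios was not tested. Of 9 miRNAs known from endothelium, stroma, blood and muscle, only hsa-miR-142-3p was above 50 on all 4 arrays, hsa-miR-145 and hsa-miR-1 were below 50 on all 4, and the summed level of the 9 was 1581, 1033, 381 and 902 in the same order. hsa-miR-142-3p made up most of the HT-29 sums, and in LS174T 5 of the 6 tested were at least 2-fold lower with shRNA-Ascl2, among them the red blood cell miRNAs hsa-miR-144 (20.9 against 270) and hsa-miR-451 (55 against 352), which were thus brightest on the shRNA-Ctr/LS174T array. Their part in the members' ratios was not tested.

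In HT-29, hsa-miR-17, hsa-miR-20a and hsa-miR-106a were about 2-fold lower in shRNA-Ascl2/HT-29 than in shRNA-Ctr/HT-29 cells, and hsa-miR-20b, hsa-miR-106b and hsa-miR-93 were within 2-fold. In LS174T the signals of all 6 were higher in the shRNA-Ascl2 cells, hsa-miR-93, hsa-miR-20a and hsa-miR-106b by more than 2-fold. The HT-29 calls were not made when blocks 1 to 18 were read alone, nor with quantile normalization or spike-in scaling. Those in LS174T also depended on the scaling of the arrays, as given with each result.

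hsa-miR-17, which is known to restrain the cell cycle activator E2F1 and the inhibitor CDKN1A, had a scaled intensity of 3291 ± 1780 with shRNA-Ascl2 and 6853 ± 974 with shRNA-Ctr in HT-29, and of 5056 ± 939 with shRNA-Ascl2 and 2635 ± 1330 with shRNA-Ctr in LS174T (mean ± SD of 4 spots). The control cells were thus the brighter of the pair in HT-29 and the dimmer in LS174T. The ratio of shRNA-Ascl2 to shRNA-Ctr was 0.480 in HT-29 and 1.92 in LS174T. At the 4 matched spot positions the ratio lay between 0.268 and 0.662 in HT-29, below 1 at all 4 and at or below 0.5 at 2.

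hsa-miR-20a, the other member from the miR-17-92 cluster, had 6598 ± 5418 with shRNA-Ascl2 and 13796 ± 2243 with shRNA-Ctr in HT-29, and 11798 ± 1086 and 2875 ± 964 in LS174T. Its ratio was 0.478 in HT-29 and 4.10 in LS174T. With shRNA-Ascl2 in HT-29 the SD was 82.1% of the mean, since the spots in block 16 read 11856 and 10664 and those in block 34 read 2391 and 1481. The brightest of these 4 spots was level with the dimmest on the control array (11804), and the other 3 lay below it. In LS174T the spots of the 2 arrays did not overlap.

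hsa-miR-106a, which differs from hsa-miR-17 by 1 base and is spotted in the same blocks, had 3054 ± 1620 with shRNA-Ascl2 and 6443 ± 1102 with shRNA-Ctr in HT-29, and 4716 ± 629 and 2421 ± 611 in LS174T. The ratios were 0.474 in HT-29 and 1.95 in LS174T. These values ran beside those of hsa-miR-17 on every array, and with shared sequence and shared blocks the 2 probes are not independent readings.

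hsa-miR-20b, the second member from the X chromosome, had 1411 ± 74.1 with shRNA-Ascl2 and 1952 ± 738 with shRNA-Ctr in HT-29, and 1857 ± 156 and 1602 ± 370 in LS174T. Its ratios of 0.723 and 1.16 were the nearest to 1 of the members by the summed size of the log2 ratios of both lines. In LS174T the spots of the 2 arrays overlapped, at 1706 to 2051.5 with shRNA-Ascl2 and 1276.5 to 2113 with shRNA-Ctr.

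hsa-miR-106b, from the MCM7 locus and known to repress CDKN1A, had 10850 ± 7352 with shRNA-Ascl2 and 9495 ± 10349 with shRNA-Ctr in HT-29, and 9700 ± 1050 and 2641 ± 750 in LS174T. The ratios were 1.14 in HT-29 and 3.67 in LS174T. On the control array of HT-29 the SD exceeded the mean (109%), as the spots in block 14 read 18489 and 18425 and those in block 32 read 645 and 423. The HT-29 ratio of hsa-miR-106b is therefore an average over spots that give opposite directions.

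hsa-miR-93, encoded next to hsa-miR-106b, had 8282 ± 7023 with shRNA-Ascl2 and 11790 ± 832 with shRNA-Ctr in HT-29, and 8424 ± 1496 and 886 ± 262 in LS174T. Its ratio was 0.702 in HT-29 and 9.50 in LS174T, where the 4 matched positions gave 8.05 to 10.8. The 4 spots of shRNA-Ctr/LS174T (685 to 1249) lay far below the 4 of shRNA-Ascl2/LS174T (6923 to 10053).

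**Figure D1:**
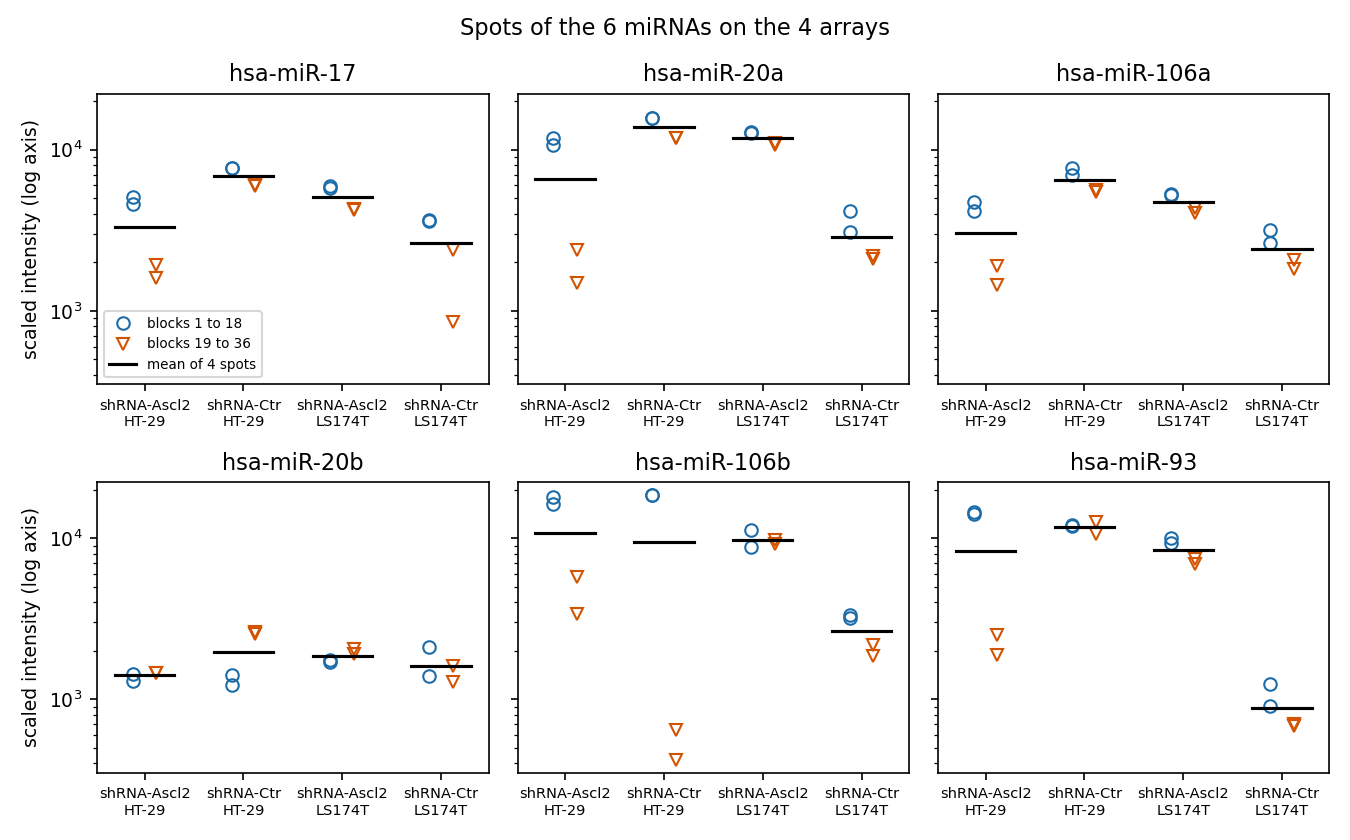
Scaled intensity (log axis) of the 4 spots of each member on the 4 arrays, with circles for blocks 1 to 18, triangles for blocks 19 to 36 and a bar for the mean. The triangles lie far below the circles for hsa-miR-20a and hsa-miR-93 with shRNA-Ascl2 in HT-29 and for hsa-miR-106b on the shRNA-Ctr/HT-29 array (645 and 423 against 18489 and 18425), whereas all 6 members are dimmer on the shRNA-Ctr/LS174T array than on the shRNA-Ascl2/LS174T array by their means.

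Counted over the members, 3 of 6 were at least 2-fold lower in HT-29, against 8.82% of the 612 miRNA probes tested, and 0 of 6 were at least 2-fold higher, against 3.92%. The median log2 ratio was -0.78 for the members and 0.01 for the 531 miRNA probes above 50 on both arrays. The 3 members past the threshold were just inside it (0.474, 0.478 and 0.480), ranked 21, 23 and 25 from the lowest among 490 human probes above 50 on both arrays, and the next member was hsa-miR-93 at 0.702. Among the 132 probes with a geometric mean above 1000 over the 4 arrays, a class that holds all 6 members, 6.82% were lower, 9 probes in all, of which 3 were the members named above.

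In LS174T, 3 of 6 members were at least 2-fold higher, against 27.3% of the 681 miRNA probes tested, and 0 of 6 were at least 2-fold lower, against 25.1%. The median log2 ratio was 1.42 for the members and -0.19 for the 521 probes above 50 on both arrays. hsa-miR-17 (1.92) and hsa-miR-106a (1.95) were just outside the threshold by their means. For hsa-miR-17 the matched spot positions gave 1.57, 1.65, 1.77 and 5.01, and the median of the spots in place of the mean gave 1.62. In the class of 132 bright probes, 50.8% were at least 2-fold higher and the median ratio was 2.05, so 3 of 6 members is the share found among bright probes at large. hsa-miR-93 ranked 23 from the highest among 479 human probes and hsa-miR-20b ranked 192.

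**Figure D2:**
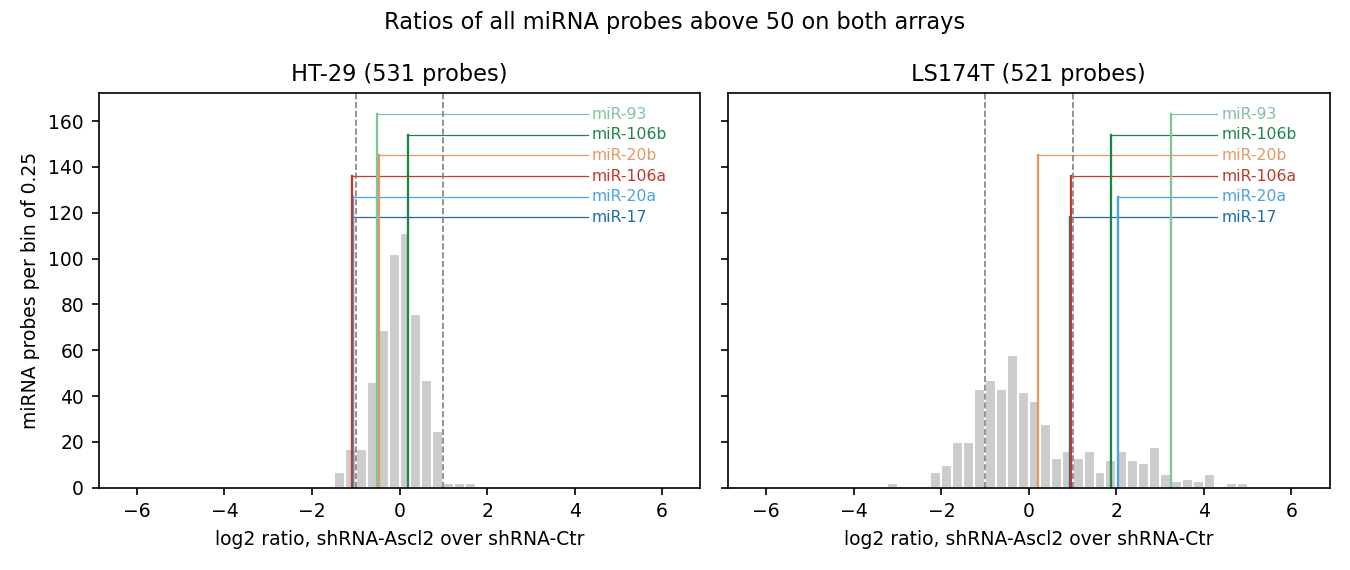
Log2 ratio of shRNA-Ascl2 over shRNA-Ctr as a histogram over the 531 (HT-29) and 521 (LS174T) miRNA probes that exceeded 50 on each array of the line, with coloured lines at the members and dashed lines at 2-fold. In HT-29 the bulk of the probes is narrow and 3 members sit at its lower edge near -1, whereas in LS174T the spread is wide and hsa-miR-93 (3.25) lies near its upper end.

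The HT-29 calls changed with the position of the spots. With each array scaled and read on blocks 1 to 18 alone, the ratios in HT-29 were 0.539 for hsa-miR-17, 0.616 for hsa-miR-20a, 0.519 for hsa-miR-106a, 0.891 for hsa-miR-20b, 0.799 for hsa-miR-106b and 1.03 for hsa-miR-93. None was at least 2-fold lower, against 7.7% of the probes tested. On blocks 19 to 36 alone, hsa-miR-17 (0.323), hsa-miR-20a (0.180), hsa-miR-106a (0.333) and hsa-miR-93 (0.209) were at least 2-fold lower, 4 of 6 against 17.4%, and hsa-miR-106b (9.42) was higher, 1 of 6 against 7.48%. hsa-miR-20b was 0.620 there. Thus hsa-miR-17, hsa-miR-20a, hsa-miR-106a and hsa-miR-20b were below 1 in both ranges, while hsa-miR-93 and hsa-miR-106b changed side.

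The landmark controls of the members' own blocks moved with part of this. With shRNA-Ascl2 in HT-29 the landmark signal of block 36, where hsa-miR-17 and hsa-miR-106a have their lower spots, was 0.308 of that of block 18, and the spots of hsa-miR-17 and hsa-miR-106a there were 0.366 and 0.378 of those in block 18. With shRNA-Ctr in HT-29 the landmark signal of block 32 was 0.150 of that of block 14, and hsa-miR-106b was 0.0289, while the 8 other bright probes of these blocks gave 0.0138 to 1.24 with a median of 0.785. In block 34, again with shRNA-Ascl2 in HT-29, the landmark signal was 0.709 of that of block 16, and hsa-miR-20a and hsa-miR-93 were 0.172 and 0.154. The 5 other bright probes of blocks 16 and 34 gave 0.163 to 0.837. For hsa-miR-106b, hsa-miR-20a and hsa-miR-93 the drop between the pairs of spots was thus larger than that of the landmarks.

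When spots were corrected by the landmarks of their own block, the HT-29 ratios were 0.783, 0.630, 0.781, 0.972, 1.40 and 0.923 for hsa-miR-17, hsa-miR-20a, hsa-miR-106a, hsa-miR-20b, hsa-miR-106b and hsa-miR-93, with none at least 2-fold lower against 8.57% of the probes tested. The other miRNA probes in blocks 18 and 36 (20 probes) themselves had a median HT-29 ratio of 0.668, while those in blocks 16 and 34 (23 probes) had 1.01. Relative to these neighbours, an alternative added after the data were seen, hsa-miR-17 and hsa-miR-106a were at 0.719 and 0.710, and hsa-miR-20a stayed past 2-fold at 0.473. The neighbours were taken whether bright or dim. In block 34 relative to block 16, the other bright probes had a median of 0.556 with shRNA-Ascl2 and of 0.721 with shRNA-Ctr. The part of brightness in the neighbours' medians was not tested.

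**Figure D3:**
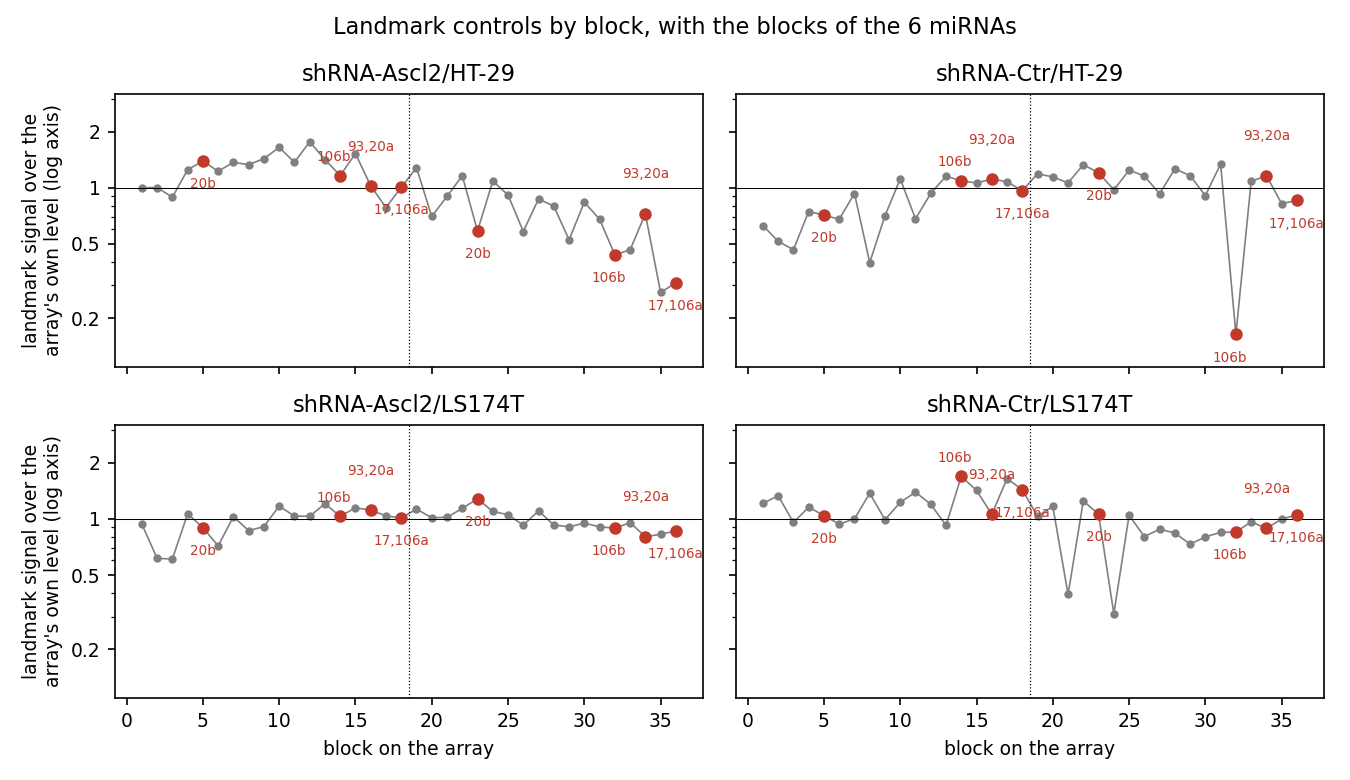
Landmark signal of each block over the array's own level (log axis) along the 36 blocks of the 4 arrays, with the blocks of the members in red and named by number and a dotted line between blocks 18 and 19. The signal of the shRNA-Ascl2/HT-29 array is highest in block 12 (1.76) and lowest in blocks 35 and 36 (0.275 and 0.310), and block 32 of the shRNA-Ctr/HT-29 array stands alone at 0.164.

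In LS174T the same 3 members were past 2-fold in either block range. On blocks 1 to 18 alone hsa-miR-20a (3.81), hsa-miR-106b (3.30) and hsa-miR-93 (9.73) were at least 2-fold higher, 3 of 6 against 27.3% of the probes tested. On blocks 19 to 36 alone the ratios of hsa-miR-20a (3.89), hsa-miR-106b (3.59) and hsa-miR-93 (7.87) were past 2-fold again, 3 of 6 against 27.4%. After the landmark correction 5 of 6 were higher, against 25.7%, since hsa-miR-17 and hsa-miR-106a moved to 2.20 and 2.17, and hsa-miR-20b was 0.952. The other probes also differed by block, with a median LS174T ratio of 1.79 in blocks 18 and 36 (22 probes) and of 0.622 in blocks 16 and 34 (22 probes). The landmark signals of blocks 16, 18, 34 and 36 were 1.12, 1.01, 0.80 and 0.86 with shRNA-Ascl2. With shRNA-Ctr they were 1.06, 1.43, 0.89 and 1.05. Bright probes at large had a median ratio of 2.05, and the part of position or of brightness in the block medians was not tested. Relative to the other probes of their own blocks, hsa-miR-17 was at 1.07 and hsa-miR-106a at 1.09, near 1. By the same measure hsa-miR-20a was at 6.60, hsa-miR-20b at 1.94, hsa-miR-106b at 3.63 and hsa-miR-93 at 15.3.

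The values of both lines also changed with the scaling. In HT-29, quantile normalization put hsa-miR-17, hsa-miR-20a and hsa-miR-106a at 0.550, 0.578 and 0.568. Spike-in scaling put them at 0.569, 0.567 and 0.562. In LS174T with quantile normalization only hsa-miR-93 (6.36) was at least 2-fold higher, 1 of 6 against 27% of the probes tested. There hsa-miR-20a and hsa-miR-106b were at 1.54 and 1.60. With each array scaled by its spike-in controls, hsa-miR-17 (0.212), hsa-miR-20a (0.454), hsa-miR-106a (0.215), hsa-miR-20b (0.128) and hsa-miR-106b (0.406) were at least 2-fold lower, 5 of 6 against 89.2% of the probes tested, and hsa-miR-93 was at 1.05. The median log2 ratio of all probes above 50 on both arrays was -3.06 under this scaling and that of the members was -1.76. Spike-in scaling shifts all log2 ratios alike, so it does not change the order of the probes. Whether the spike-in controls or the miRNA probes give the better common scale for the LS174T arrays was not tested.

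**Figure D4:**
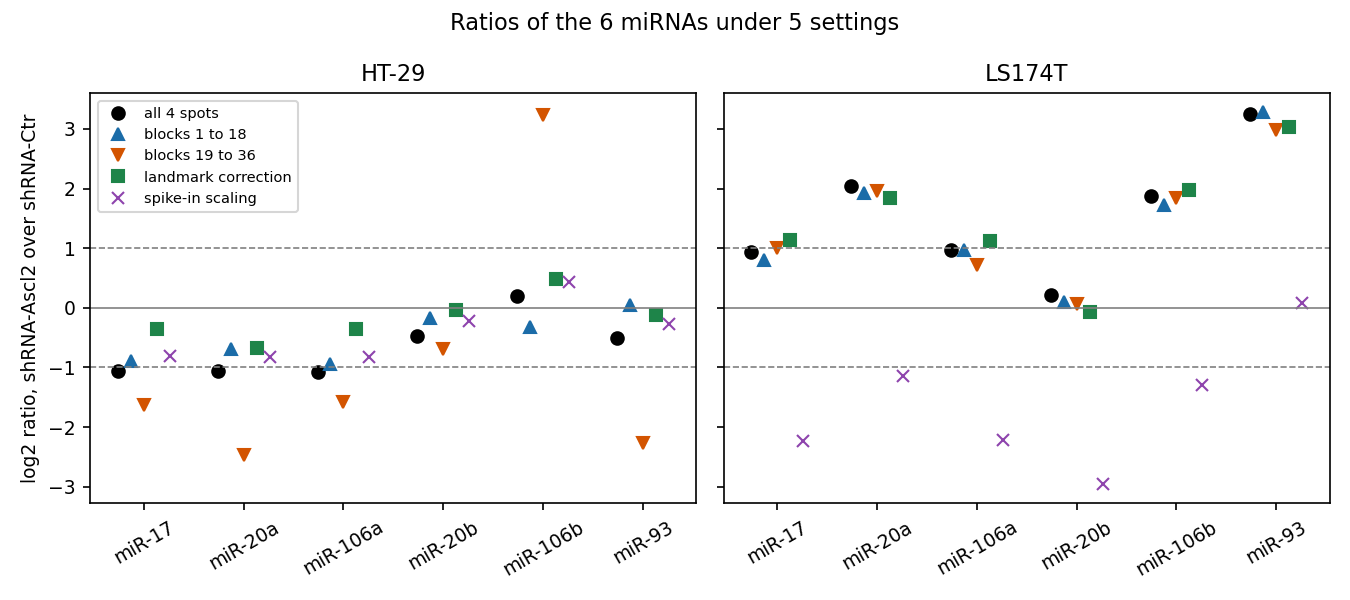
Log2 ratio of shRNA-Ascl2 over shRNA-Ctr for each member in HT-29 and LS174T under 5 settings, with dashed lines at 2-fold. In HT-29 the orange triangles (blocks 19 to 36) stand apart from the blue ones, and in LS174T the crosses (spike-in scaling) lie below 0 except for hsa-miR-93 at 0.07, while the other settings lie close together.

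Set between the lines, the members were brighter in shRNA-Ctr/HT-29 than in shRNA-Ctr/LS174T cells by 13.3-fold for hsa-miR-93, 4.80-fold for hsa-miR-20a, 3.60-fold for hsa-miR-106b, 2.66-fold for hsa-miR-106a, 2.60-fold for hsa-miR-17 and 1.22-fold for hsa-miR-20b. Between the 2 shRNA-Ascl2 arrays the same ratios were 0.983, 0.559, 1.12, 0.648, 0.651 and 0.760. Each member thus differed by less than 2-fold between the shRNA-Ascl2 cells of the lines over all 4 spots, although on blocks 19 to 36 alone hsa-miR-20a (0.223) and hsa-miR-93 (0.386) were past 2-fold. Between the control cells the direction turned with position for hsa-miR-106b, at 6.88 on blocks 1 to 18 and 0.231 on blocks 19 to 36, and for hsa-miR-20b, at 0.917 and 1.55. Quantile normalization gave 8.31 for hsa-miR-93, 1.62 for hsa-miR-20a, 1.55 for hsa-miR-106b, 1.21 for hsa-miR-106a, 1.12 for hsa-miR-17 and 0.796 for hsa-miR-20b. Under spike-in scaling the comparison of the control cells turned for 5 members, at 0.140 to 0.550, and was 1.53 for hsa-miR-93. No share or median over all probes, or over the bright ones, was computed for either pair of arrays. Scaled on the miRNA probes, the 8 miRNAs known from colon epithelium summed to 185350 in HT-29 and 23355 in LS174T with shRNA-Ctr. With shRNA-Ascl2 these sums were 169490 and 177340. hsa-miR-720, 1 bright probe given as an example and on no list used here, went the other way between the control cells, at 39215 and 66083. Whether the differences between the lines are particular to the members was not tested.

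A model over the 4 arrays with vector and cell line as terms, which leaves 1 residual degree of freedom, was fitted with limma to 714 probes. For a change common to both lines it called 0% of the probes at an adjusted p under 0.05 (0 at an unadjusted p under 0.05), and 0 of 6 members. The largest common log2 changes among the members were 1.37 ± 1.13 (SE) for hsa-miR-93 and 1.03 ± 0.64 for hsa-miR-106b, both with an adjusted p of 0.992, and those of hsa-miR-17 and hsa-miR-106a were -0.06 with SEs of 0.71 and 0.72. For a level difference between HT-29 and LS174T it called 0% of the probes (35 at an unadjusted p under 0.05) and 0 of 6 members, the lowest adjusted p being 0.840 for hsa-miR-93 and hsa-miR-106b, with 1.85 ± 1.13 and 1.00 ± 0.64 on the log2 scale. The opposite directions of hsa-miR-17, hsa-miR-20a, hsa-miR-106a, hsa-miR-20b and hsa-miR-93 in the 2 lines could not be tested, because the interaction would use the last degree of freedom. In the fitted model such differences enter the residual, so its lack of calls does not show that the members are unchanged.

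The other arm of each precursor, the passenger strand, is cut from the same hairpin as the guide but is mostly degraded. Its probe lies at another place on the array, and how far its level follows that of the precursor was not tested. The precursors MIR17, MIR20A and MIR106B from RefSeq (GRCh38.p14) are shown with the guide (first run of capitals) and the passenger strand (second run), because their strands are compared next.
MIR17: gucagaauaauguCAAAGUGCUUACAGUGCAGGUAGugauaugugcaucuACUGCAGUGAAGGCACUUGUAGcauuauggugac
MIR20A: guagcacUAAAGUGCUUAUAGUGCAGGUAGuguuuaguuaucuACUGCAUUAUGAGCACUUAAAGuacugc
MIR106B: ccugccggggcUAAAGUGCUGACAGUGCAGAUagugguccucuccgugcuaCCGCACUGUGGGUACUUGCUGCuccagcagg

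The hairpins lie at chr13:91350605-91350688 and chr13:91351065-91351135 (plus strand) and at chr7:100093993-100094074 (minus strand). Of the 6 passenger strands, 5 were above 50 on all 4 arrays and hsa-miR-106a* was below 50 on all 4. In HT-29 none of the 5 was 2-fold higher or lower, with ratios of 0.690 to 1.27 and a median log2 ratio of -0.09. In LS174T 4 of the 5 were at least 2-fold higher, with ratios of 1.43 to 7.75 and a median log2 ratio of 2.17, beside 27.3% of all probes tested and 50.8% of the bright ones. With spike-in scaling all 5 were below 1, at 0.857 for hsa-miR-17*, 0.496 for hsa-miR-20a*, 0.261 for hsa-miR-20b*, 0.159 for hsa-miR-93* and 0.545 for hsa-miR-106b*.

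hsa-miR-17* read 2337 ± 986 with shRNA-Ascl2 and 1840 ± 1263 with shRNA-Ctr in HT-29, and 2401 ± 119 and 310 ± 77.3 in LS174T. Its ratio was 1.27 in HT-29, where hsa-miR-17 had 0.480, and 7.75 in LS174T, where hsa-miR-17 had 1.92. The HT-29 ratio of hsa-miR-17* was itself split by position, at 2.83 on blocks 1 to 18 and 0.613 on blocks 19 to 36, yet the guide was below the passenger in both ranges. After the landmark correction the pair stood at 0.783 and 1.17. The signal of hsa-miR-17 can include RNA of hsa-miR-106a, and the part of this in the gap was not tested.

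hsa-miR-20a* read 461 ± 64.8, 491 ± 59.9, 312 ± 169 and 69.6 ± 6.62 in the same order of arrays, with ratios of 0.940 (HT-29) and 4.49 (LS174T). The HT-29 ratio held in both block ranges (0.957 and 0.880), and the 2-fold lower reading of hsa-miR-20a (0.478) was not seen in its passenger strand. However, hsa-miR-20a itself stood at 0.616 on blocks 1 to 18 and 0.180 on blocks 19 to 36. After the landmark correction the guide and passenger stood at 0.630 and 1.02. The guide lies in blocks 16 and 34 and the passenger in blocks 7 and 25, and the part of position in their gap was not tested. In LS174T the pair was alike, at 4.10 and 4.49. hsa-miR-106b* read 516 ± 201, 508 ± 35.3, 331 ± 64.3 and 67.3 ± 34.8, with ratios of 1.02 and 4.92 beside 1.14 and 3.67 for hsa-miR-106b.

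Of the 5 members with a measured passenger strand, hsa-miR-93 was the one whose guide had the higher LS174T ratio of the pair over all 4 spots, while on blocks 1 to 18 alone hsa-miR-20a did too (3.81 against 2.74 for hsa-miR-20a*). hsa-miR-93* read 96.8 ± 80.7, 140 ± 33.6, 177 ± 76.6 and 124 ± 47.2, a ratio of 1.43 in LS174T where hsa-miR-93 had 9.50, a gap of 2.73 on the log2 scale that was 2.65 and 2.84 in the 2 block ranges. The passenger strand was dim, and its means in the 2 arrays of a line differed by less than the larger SD of the pair. hsa-miR-20b* (1073 ± 176, 1173 ± 374, 1568 ± 97.4 and 665 ± 47.1) had ratios of 0.915 and 2.36, beside 0.723 and 1.16 for hsa-miR-20b.

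**Figure D5:**
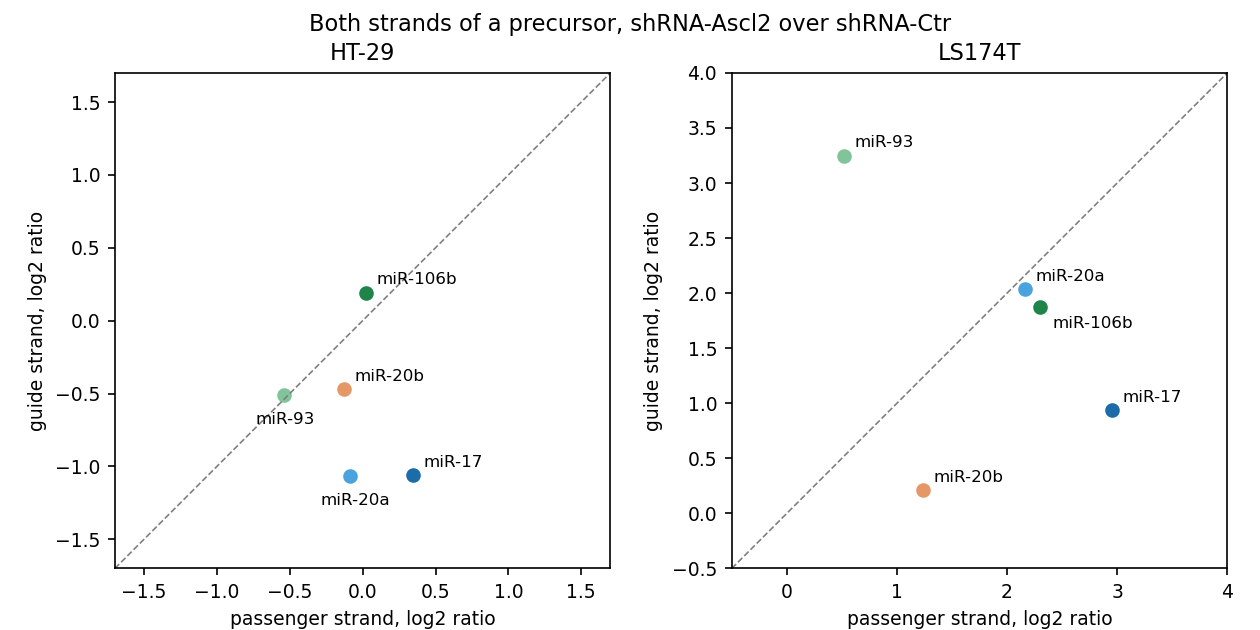
Log2 ratio of the guide strand against that of the passenger strand of the same precursor, for the 5 members whose passenger strand was measured, in HT-29 and LS174T, with a dashed line where both are equal. In HT-29 hsa-miR-17 and hsa-miR-20a lie well below the line, and in LS174T hsa-miR-17 lies below and hsa-miR-93 above it, while hsa-miR-20a and hsa-miR-106b lie near it.

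The other mature miRNAs of the 3 clusters come from the same primary transcripts as the members. Of 7 such miRNAs, 5 were above 50 on all 4 arrays (hsa-miR-19a, hsa-miR-19b, hsa-miR-92a, hsa-miR-18b and hsa-miR-25). In HT-29 none of these 5 was past 2-fold, with ratios of 1.65, 0.951, 1.14, 0.567 and 0.963 and a median log2 ratio over the list of -0.05, beside -0.78 for the members, which became -0.23 with the landmark correction. hsa-miR-18b was past 2-fold lower on blocks 19 to 36 alone (0.251) and with the landmark correction (0.204), which also took hsa-miR-19a past 2-fold higher (2.13). hsa-miR-19a, from between hsa-miR-17 and hsa-miR-20a in the cluster, read 8.63 on blocks 1 to 18 and 0.598 on blocks 19 to 36. In LS174T all 5 were at least 2-fold higher, at 3.88, 3.25, 7.56, 2.76 and 4.34, beside 50.8% of the bright probes, and all 5 were below 1 with spike-in scaling (0.429, 0.360, 0.837, 0.305 and 0.480), whereas hsa-miR-18a, above 50 on 1 array only, was lower (0.314).

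hsa-miR-92a, which like hsa-miR-19b is encoded on both chromosome 13 and the X chromosome, read 7348 ± 719 with shRNA-Ascl2 and 6429 ± 1841 with shRNA-Ctr in HT-29, and 8677 ± 766 and 1147 ± 512 in LS174T. hsa-miR-25, which shares the MCM7 transcript with hsa-miR-106b and hsa-miR-93, read 2661 ± 512, 2763 ± 167, 2245 ± 131 and 517 ± 313. Their order over the 4 arrays was that of the members in LS174T, with the shRNA-Ctr array lowest, but not the lower reading in shRNA-Ascl2/HT-29 of hsa-miR-17 and hsa-miR-20a. Of 9 further strands of the clusters, 3 were above 50 on all 4 arrays, and these gave HT-29 ratios of 1.08 (hsa-miR-18b*), 0.913 (hsa-miR-363*) and 0.979 (hsa-miR-25*) and LS174T ratios of 0.257, 0.420 and 0.552. Of the rest, hsa-miR-18a* (7.47) and hsa-miR-19b-1* (3.12) were at least 2-fold higher and hsa-miR-92a-2* (0.378) lower in LS174T.

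The other miRNAs with the same seed were dim. hsa-miR-519d, above 50 on all 4 arrays, read 105 with shRNA-Ascl2 and 96.5 with shRNA-Ctr in HT-29, and 78.1 and 204 in LS174T. Its log2 ratio of -1.38 in LS174T was past 2-fold lower, on the other side of 0 to the members. hsa-miR-526b* was below 50 on all 4. Of 6 miRNAs whose seed is shifted by 1 base (hsa-miR-302a to hsa-miR-302d, hsa-miR-372 and hsa-miR-373, miRNAs of embryonic stem cells), 5 were below 50 on all 4 arrays. hsa-miR-302a read 972 ± 275, 667 ± 147, 616 ± 160 and 1766 ± 190, so its HT-29 ratio was 1.46 and its LS174T ratio 0.349, on the opposite sides of 1 to hsa-miR-17.

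The mean profile of the members, as log2 intensity centred on each member's own mean, was 0.03 with shRNA-Ascl2 and 0.69 with shRNA-Ctr in HT-29, and 0.42 and -1.13 in LS174T. Over these 4 arrays, the 5 nearest of 429 other human probes above 50 on all arrays were hsa-miR-7-1* (Euclidean distance 0.175), hsa-miR-32* (0.296), hsa-miR-29b (0.355), hsa-miR-30e (0.364) and hsa-miR-16-2* (0.375). hsa-miR-20a (0.448), hsa-miR-106a (0.600), hsa-miR-17 (0.611) and hsa-miR-106b (0.711) were farther from the members' mean, and hsa-miR-20b (1.23) and hsa-miR-93 (1.66) farthest. Each of the 5 nearest probes was thus nearer to the members' mean than any member was. They were picked as the nearest of 429 probes, whereas the members were fixed by name, so this order follows in part from the choice. hsa-miR-29b read 12873, 15257, 16219 and 5836 over the 4 arrays and hsa-miR-30e 2452, 2758, 2950 and 958, in both cases with the shRNA-Ctr/LS174T array lowest.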

How the data were processed

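The authors scanned the arrays and extracted foreground and background with GenePix Pro. The deposited scanner tables hold linear intensity values per spot (12312 per array). A further deposited table holds the spot median of each probe divided by 1 factor per array, as a normalized signal. The deposited lists of 2-fold changes hold the authors' ratios and 24 value columns, which were not used. Here, background-subtracted intensities were averaged per probe and scaled on 471 miRNA probes above 50 on all 4 arrays, as the methods state for the study's own median normalization. Ratios were called at 2-fold, and limma 3.58.1 (R 4.3.3) was run on log2 intensities, with values below 50 raised to 50 and Benjamini-Hochberg adjustment, after the scripts were tested on simulated data. Python 3.11.15 was used otherwise. Members, lists and alternatives were chosen with earlier results of these data known. All 6 members are named. Of related miRNAs, those past 2-fold or above 50 on all arrays are named, with the 5 nearest profiles.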

Additional observations from a re-analysis of the deposited data

Results flagged for a closer look

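The ratios of 5 members lay on opposite sides of 1 in the 2 lines, lower in HT-29 and higher in LS174T. The log2 ratio in LS174T minus that in HT-29 was 3.76 for hsa-miR-93, 3.1 for hsa-miR-20a, 2.04 for hsa-miR-106a, 2.0 for hsa-miR-17 and 0.682 for hsa-miR-20b, and the difference was not tested, since 4 arrays leave no degree of freedom for it. The spike-in controls, which no comparison used as a measurement, had a median ratio of shRNA-Ascl2 to shRNA-Ctr of 9.22 in LS174T after scaling on the miRNA probes. The landmark signal of block 14 was 6.65 times that of block 32 in HT-29 with shRNA-Ctr, the blocks that hold hsa-miR-106b. The members' ratios with the landmark correction and with spike-in scaling are given above, and what made the controls differ was not tested.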

How the results depend on the processing

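In HT-29 the count of members past 2-fold was 3, all lower, against 8.82% of the probes tested. It became 0 on blocks 1 to 18 alone (against 7.7%) and with the landmark correction (against 8.57%). The count was also 0 with quantile normalization, a 3-fold threshold and spike-in scaling, which took the 3 members to 0.562 to 0.569. Centred on the probes of the same blocks (chosen after seeing the data) it was 1. On blocks 19 to 36 alone it was 5, of which 4 were lower (against 17.4%) and 1 higher (against 7.48%). It was 3 under the other alternatives, and the median log2 ratio stayed below 0 under each, at -0.234 to -1.61. In LS174T the count was 3, all higher, against 27.3%, and became 1 with quantile normalization (against 27%, median log2 ratio 0.369). It was 5 with the landmark correction (against 25.7%) and with a 1.5-fold threshold. Centred on the probes of the same blocks it was 3 again, with hsa-miR-17 and hsa-miR-106a at 0.0996 and 0.122 and hsa-miR-93 at 3.93 on the log2 scale. Spike-in scaling turned it, to 5 members lower (against 89.2%) and a median of -1.76. hsa-miR-20a was then at -1.14 and hsa-miR-106b at -1.3 on the log2 scale, and the cause was not tested. Where no share is given beside a count here, the share over all probes was not computed. No member passed either limma test under any of the 14 alternatives, with lowest adjusted p-values of 0.843 for a common change and 0.542 for a difference between the lines. With 1 residual degree of freedom, this lack of calls does not show that the members are unchanged. Leaving out an array was not run as it leaves no residual degree of freedom, and no paired analysis was possible because each group has 1 sample. The members were bright, so signal over background did not limit their detection.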
